A study of Homo sapiens with 6 samples.

Results

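The genes described here are 30 human genes of cholesterol and fatty acid synthesis that are driven by the sterol regulatory element-binding proteins (SREBPs), out of 58884 gene identifiers in the deposited expression table. They were chosen by name, and their Ensembl identifiers were looked up in the table, where all 30 were found. The sterol branch holds 18 genes, of which 7 act up to farnesyl diphosphate (the mevalonate steps) and 11 act from farnesyl diphosphate to cholesterol. The fatty acid branch holds 7 genes, and 5 more encode the SREBPs themselves or other members of the SREBP circuit. Expression was measured by RNA sequencing of total RNA in 6 libraries of 3 thyroid cancer cell lines, with 1 library per condition. BHT-101, an anaplastic thyroid carcinoma line, and FTC-133, a follicular thyroid carcinoma line, received a CRABP2-specific small interfering RNA (siCRABP2) or a control one (siControl). 8505C, another anaplastic thyroid carcinoma line, was transfected with a vector that overexpresses CRABP2 or with the empty vector. CRABP2 is a retinoic acid-binding protein of the cytosol, and the series asked what its depletion or overexpression does in these cells. The sources used here do not give the time after transfection, the siRNA sequences, the promoter of the vector, or whether the 8505C cells were a clone or a pool.

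SREBPs are made as precursors in the membrane of the endoplasmic reticulum. When sterols are low, the escort protein SCAP carries them to the Golgi, proteases release their transcription factor part, and this part switches on genes of sterol and fatty acid synthesis. When sterols are plentiful, INSIG proteins hold SCAP and the SREBPs back, so that the pathway is limited by its own product. The product of SREBF2 acts mainly on sterol genes and that of SREBF1 mainly on fatty acid genes, and proliferating tumour cells use both branches to make membranes.

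Levels are given in FPKM, fragment counts scaled for exon length and library depth, so that genes can be compared per length. Differences between libraries are given on the log2(FPKM + 1) scale, where 1 is close to a doubling for a well expressed gene and less for a gene near 1 FPKM. A gene was called measured in a line when at least 1 of its 2 libraries reached 1 FPKM. Whole reads were recovered from the FPKM values for 99.4% of measured genes. There were 22084110 to 27958622 reads per library, and 37 to 29575 reads per library for each of the 30 genes. For 14 of the 30 the annotated exon length did not give whole reads, and their reads rest on a searched length that did. A 95% exact (Clopper-Pearson) interval of the log2 ratio of reads, scaled by depth, is called the counting interval below. It covers counting error only, and it can lie outside the difference of a low gene, because the added 1 shrinks the difference. With 1 library per condition, a difference within a line has no replicate check, and such differences compare libraries, not conditions.

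CRABP2 itself followed the labels. It stood at 27.3 FPKM with siControl and 11.4 with siCRABP2 in BHT-101, at 8.94 and 0.170 in FTC-133, and at 0.607 with the empty and 38.0 with the CRABP2 vector in 8505C. Of 8 thyroid genes, 1 or 2 reached 1 FPKM in a library (DIO1 in BHT-101, PAX8 and NKX2-1 in FTC-133, NKX2-1 in 8505C), and the thyroid-defining TG and TSHR stayed under 1 FPKM in all 6. None of 4 adipocyte and 4 hepatocyte markers reached 1 FPKM in any library, and of 5 leukocyte markers CD14 alone did. Summed over 5 fibroblast markers, levels were 79.1 to 83.9 FPKM in BHT-101, 31.5 to 53.6 in FTC-133 and 0.3802 to 1.05 in 8505C, and over 5 epithelial markers 737 to 776, 52.6 to 54.5 and 148 to 235. LUM made up most of the fibroblast sum in BHT-101 (80.2 and 75.5 FPKM). COL1A1 (39.6 and 24.1) and LUM (13.2 and 6.53) made up most of it in FTC-133. PDGFRB and DCN stayed under 1 FPKM in all 6 libraries. All 5 epithelial markers reached 1 FPKM in BHT-101, but CDH1 and KRT19 did not in FTC-133 or 8505C, nor did EPCAM in 8505C. Of 4 endothelial markers at most 1 reached 1 FPKM in a library. The part of these levels in the differences between lines given below was not tested.

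The promoters of genes on which the results below turn are shown first. RefSeq windows of 300 bases, from 250 before to 50 after a gene's start, matched 26 of the 30 genes by symbol, all but ACAT2, FASN, FDFT1 and SQLE. Both strands were searched for the core of the sterol regulatory element (TCACNCCAC), the E-box CACGTG, which SREBPs can also bind, the CCAAT box (CCAAT), which binds the SREBP partner NF-Y, and the GC box (GGGCGG), which binds the partner SP1. The printed runs are the 250 bases before the start of HMGCS1 (chr5:43313413-43313662, minus strand), IDI1 (chr10:1048887-1049136, minus strand), MSMO1 (chr4:165327419-165327668, plus strand), INSIG1 (chr7:155297628-155297877, plus strand) and SREBF2 (chr22:41832855-41833104, plus strand), from RefSeq on GRCh38.p14. They are written 5′ to 3′ on the strand of the gene. Capitals mark the first 3 motifs, with ATTGG as CCAAT on the other strand. HMGCS1 has 2 and IDI1 has 3 such windows, and the window with the most matches is shown. The first 4 are the genes of the sterol branch and its feedback that had the largest positive differences between the FTC-133 libraries, apart from SQLE, and SREBF2 is the only member whose window held the sterol element core.
HMGCS1: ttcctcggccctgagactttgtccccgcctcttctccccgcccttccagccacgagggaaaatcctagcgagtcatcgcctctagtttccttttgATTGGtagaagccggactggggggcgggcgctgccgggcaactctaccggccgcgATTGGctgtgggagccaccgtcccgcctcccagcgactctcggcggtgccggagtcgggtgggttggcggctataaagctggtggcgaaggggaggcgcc
IDI1: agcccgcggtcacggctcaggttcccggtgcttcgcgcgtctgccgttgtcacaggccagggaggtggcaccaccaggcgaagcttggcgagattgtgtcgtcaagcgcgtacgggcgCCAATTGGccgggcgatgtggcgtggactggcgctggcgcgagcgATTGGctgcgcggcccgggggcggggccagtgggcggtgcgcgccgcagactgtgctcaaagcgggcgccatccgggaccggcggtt
MSMO1: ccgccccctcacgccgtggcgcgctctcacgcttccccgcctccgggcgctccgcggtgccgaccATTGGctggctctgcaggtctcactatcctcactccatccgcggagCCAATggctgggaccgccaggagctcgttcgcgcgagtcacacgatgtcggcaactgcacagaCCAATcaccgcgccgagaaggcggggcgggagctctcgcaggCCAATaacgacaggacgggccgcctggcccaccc
INSIG1: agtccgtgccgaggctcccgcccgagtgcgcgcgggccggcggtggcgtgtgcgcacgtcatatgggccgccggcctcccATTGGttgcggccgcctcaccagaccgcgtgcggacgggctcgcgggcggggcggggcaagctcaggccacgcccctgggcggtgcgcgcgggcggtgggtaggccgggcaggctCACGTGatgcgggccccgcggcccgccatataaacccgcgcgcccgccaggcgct
SREBF2: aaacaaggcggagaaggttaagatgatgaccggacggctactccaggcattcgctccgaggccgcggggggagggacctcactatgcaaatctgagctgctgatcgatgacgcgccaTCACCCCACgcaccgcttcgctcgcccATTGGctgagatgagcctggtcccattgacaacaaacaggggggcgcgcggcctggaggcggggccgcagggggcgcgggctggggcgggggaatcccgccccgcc
The CCAAT box was in the window of 20 of 26 members, against 34.6% of all 35116 windows and 39.7% of all 27305 genes with a window. It was in 13 of 15 sterol genes, 4 of 6 fatty acid genes and 3 of 5 of the other members. The MSMO1 run above has 4 of them, and the IDI1 run has a pair that share letters on opposite strands (CCAATTGG). The GC box was in 25 of 26 members, against 45% of windows and 48.3% of genes. The sterol element core was in 1 member, SREBF2, against 1.13% of windows and 1.39% of genes, and it began 133 bases before the start of the gene. The E-box was in LSS, SC5D and INSIG1, against 7.26% of windows and 8.77% of genes. CACGTG is its own reverse complement and was counted once where it occurred. In the 5 runs above, no letter in capitals belonged to 2 different motifs. Such matches describe the letters of these windows and are not measured binding sites.

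**Figure D1:**
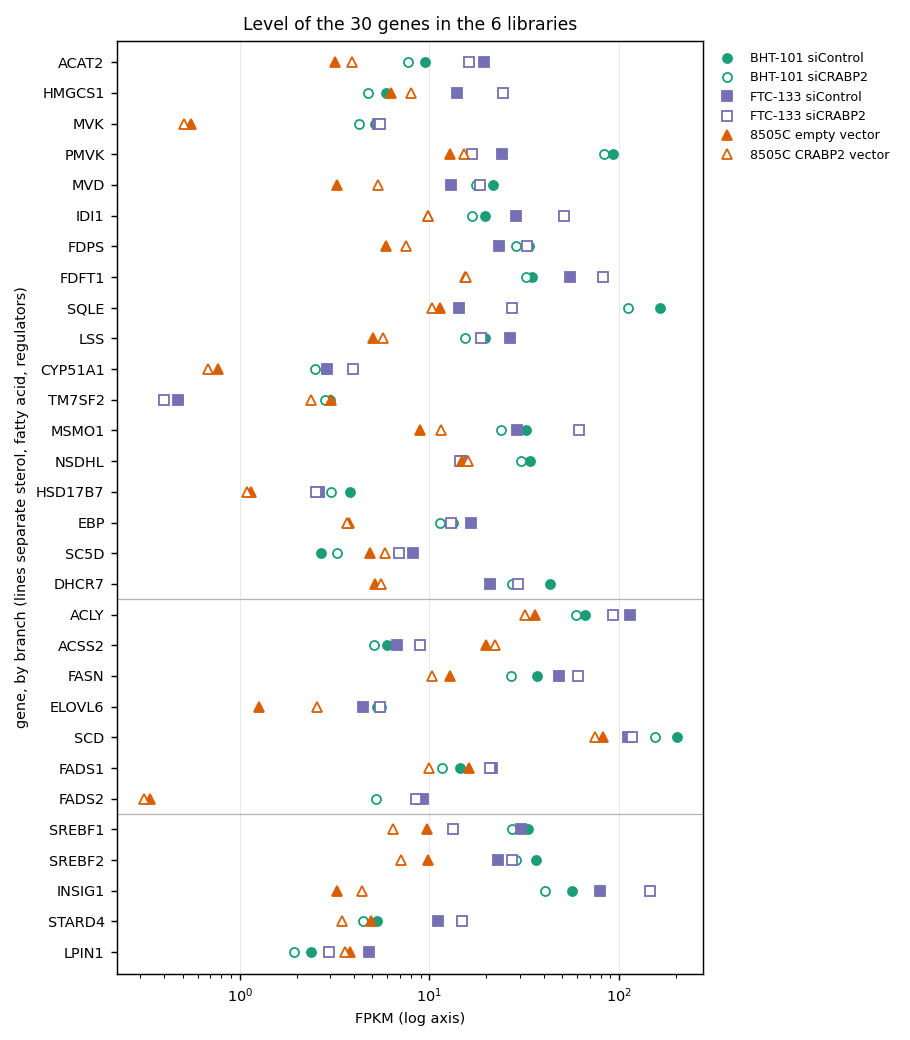
Level of the 30 genes in each of the 6 libraries, in FPKM on a log axis, with genes in pathway order and lines between the sterol branch, the fatty acid branch and the regulators. Green circles are BHT-101, purple squares FTC-133 and orange triangles 8505C, and open symbols are the siCRABP2 or CRABP2 vector libraries. The 8505C triangles lie left of every other symbol in 22 of 30 genes, and the distance between lines is mostly wider than that between the 2 libraries of a line.

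Summed over the 30 genes, 8505C stood below BHT-101 and FTC-133, whose levels overlapped. The summed level of the 30 genes was 1013 FPKM with siControl and 798 with siCRABP2 in BHT-101, 784 and 944 in FTC-133, and 317 with the empty and 306 with the CRABP2 vector in 8505C. As a share of all FPKM this was 0.311% and 0.250%, 0.270% and 0.318%, and 0.125% and 0.119%. The sterol branch summed to 541 and 426 FPKM in BHT-101, 320 and 425 in FTC-133 and 116 and 129 in 8505C. The fatty acid branch summed to 339 and 268 FPKM in BHT-101, 315 and 315 in FTC-133 and 169 and 152 in 8505C. The sterol sum, over 18 genes, was larger than the fatty acid sum, over 7, in all 4 siRNA libraries and smaller in both 8505C libraries. In FTC-133 with siControl the sums were close, at 320 and 315 FPKM. SQLE alone gave 164 of the 541 FPKM in BHT-101 with siControl. In these bulk samples, fewer cells that express a gene and less RNA per cell cannot be told apart.

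In BHT-101, 28 of the 30 genes were lower with siCRABP2 than with siControl, where 46.7% of all measured genes were lower. Their median difference was -0.24, beside 0.01 over all 12055 measured genes. The sterol branch had 17 of 18 genes below 0 (median -0.23), the fatty acid branch 6 of 7 (median -0.30) and the regulators and other targets 5 of 5 (median -0.28). The sizes were small: none reached 1 in either direction (0.539% of genes were at least 1 lower and 0.589% at least 1 higher), and the most negative was -0.64. DHCR7, FADS2 and SQLE were at least 0.5 lower, as were 1.66% of genes, and no member was at least 0.5 higher, where 2.36% were. The counting interval lay below 0 for 26 of 30, against 19.1% of genes, and above 0 for SC5D alone, against 23.7%. Among protein-coding genes with FPKM of at least 5, 46.2% were lower and 23.7% had a counting interval below 0. With a fitted trend on GC content and length removed, the medians of the sterol and the fatty acid branch were -0.21 and -0.23, and TM7SF2 turned from -0.06 to 0.02.

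In FTC-133, 17 of 29 measured genes were higher with siCRABP2, where 46.1% of all measured genes were higher. The median difference was 0.25, beside -0.04 over all 12832 measured genes. The sterol branch had 10 of 17 genes above 0 (median 0.35, which is 0.19 with no filter on low values) and the fatty acid branch 4 of 7 (median 0.06, which is -0.02 after quantile normalization). The fatty acid count was 3 after quantile normalization and 6 with the GC content and length trend removed. MSMO1 was at least 1 higher, as were 2.36% of genes, but came to 0.93 with the GC content and length trend removed, and SREBF1 at least 1 lower, as were 2.35%. At least 0.5 higher were 6 members (10.3% of genes) and at least 0.5 lower were 2 (13.1%). Of these, FDFT1 came to 0.48 after quantile normalization and LPIN1 to -0.48 with the GC and length trend removed. The counting interval lay above 0 for 16 genes, against 32.1% of genes, and below 0 for 9, against 39.4%. Among protein-coding genes with FPKM of at least 5, 48.4% were higher and 38.2% had a counting interval above 0. The FTC-133 libraries differed more widely than those of BHT-101 across all genes, as those shares show.

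In 8505C, 15 of 27 measured genes were higher with the CRABP2 vector, where 52.8% of all measured genes were higher, and the median difference was 0.02, the same as over all 11731 measured genes. The sterol branch had 12 of 16 genes above 0 (median 0.12), with all 6 measured mevalonate genes among them, while the fatty acid branch had 2 of 6 (median -0.15) and the regulators and other targets 1 of 5 (median -0.40). Of the 12, IDI1 stood at 0.01 and FDFT1 at 0.02, and both were below 0 once centred on all genes (10 of 16 above 0), IDI1 also after quantile normalization (-0.02) or removal of the GC and length trend (-0.07). No member reached 1 in either direction, where 1.85% of genes were at least 1 higher and 1.86% at least 1 lower. ELOVL6 and MVD were at least 0.5 higher (9.88% of genes), and FADS1 and SREBF1 at least 0.5 lower (7.91%), though with the GC and length trend removed they came to -0.47 and -0.40. The counting interval lay above 0 for 11 members, against 35% of genes, and below 0 for 9, against 30.8%. Among protein-coding genes with FPKM of at least 5, 53.4% were higher and 40.8% had a counting interval above 0.

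Set side by side, the median of the sterol branch lay above that of the fatty acid branch in each line, at -0.23 against -0.30 in BHT-101, 0.35 against 0.06 in FTC-133 (0.19 for the sterol branch with no filter on low values) and 0.12 against -0.15 in 8505C. The 2 branches overlapped in every line. In FTC-133 the sterol genes ran from -0.50 for PMVK to 1.05 for MSMO1 and the fatty acid genes from -0.29 for ACLY to 0.35 for ACSS2. In 8505C they ran from -0.25 for TM7SF2 to 0.57 for MVD and from -0.64 for FADS1 to 0.64 for ELOVL6. Within the sterol branch the mevalonate steps had medians of -0.23, 0.47 and 0.27 in BHT-101, FTC-133 and 8505C, and the steps from farnesyl diphosphate on had -0.21, 0.16 and 0.05. With 1 library per condition, none of these gaps between branches was tested.

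**Figure D2:**
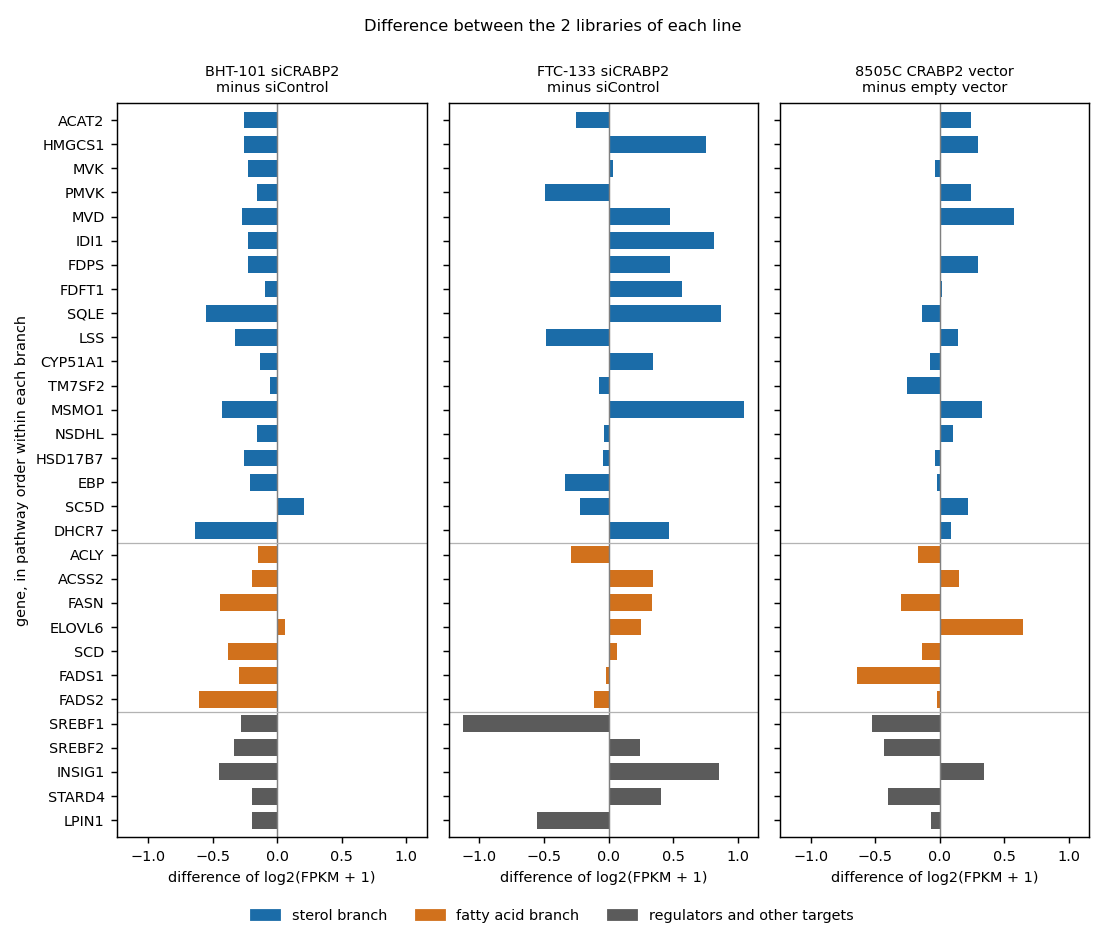
Difference of log2(FPKM + 1) between the 2 libraries of each line (siCRABP2 minus siControl in BHT-101 and FTC-133, CRABP2 vector minus empty vector in 8505C), with 1 bar per gene and no error bar because each condition has 1 library. Bars in BHT-101 point left in 28 of 30 genes, in FTC-133 they run from -1.13 for SREBF1 to 1.05 for MSMO1, and in 8505C 6 of the 7 mevalonate bars point right, that of IDI1 by only 0.01. TM7SF2 in FTC-133 and MVK, CYP51A1 and FADS2 in 8505C are drawn but were under 1 FPKM in both libraries.

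The mevalonate steps turn acetyl-CoA into the isoprenoid farnesyl diphosphate. HMGCS1, the cytosolic HMG-CoA synthase, was 5.89 FPKM with siControl and 4.77 with siCRABP2 in BHT-101, 14.0 and 24.4 in FTC-133, and 6.31 with the empty and 7.97 with the CRABP2 vector in 8505C. IDI1, the isopentenyl diphosphate isomerase, was 19.7 and 16.7 FPKM in BHT-101, 28.7 and 51.3 in FTC-133, and 9.81 and 9.87 in 8505C. In both genes the FTC-133 siCRABP2 library was the highest of the 6. The differences were -0.26, 0.75 and 0.29 for HMGCS1 and -0.23, 0.81 and 0.01 for IDI1, in the order BHT-101, FTC-133 and 8505C, which is kept below. The counting intervals in FTC-133 were 0.72 to 0.87 for HMGCS1 and 0.77 to 0.90 for IDI1.

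MVD, which makes isopentenyl diphosphate, was 21.6 and 17.7 FPKM in BHT-101, 13.0 and 18.4 in FTC-133, and 3.28 and 5.36 in 8505C. FDPS, the farnesyl diphosphate synthase, was 33.6 and 28.5 FPKM in BHT-101, 23.2 and 32.6 in FTC-133, and 5.93 and 7.53 in 8505C. Both genes were lower in the siCRABP2 library of BHT-101 and higher in that of FTC-133, and both were higher with the CRABP2 vector in 8505C. The MVD differences were -0.27, 0.47 and 0.57, and those of FDPS were -0.23, 0.47 and 0.30. Processed pseudogenes of FDPS exist, so its reads are uncertain to that extent.

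ACAT2, which makes acetoacetyl-CoA in the cytosol, was 9.46 and 7.75 FPKM in BHT-101, 19.3 and 16.1 in FTC-133, and 3.18 and 3.93 in 8505C. PMVK, phosphomevalonate kinase, was 92.5 and 83.0 FPKM in BHT-101, 24.2 and 16.8 in FTC-133, and 12.8 and 15.3 in 8505C. These genes did not follow HMGCS1 in FTC-133: they were lower in the siCRABP2 libraries of both knockdown lines and higher with the CRABP2 vector. Their FTC-133 differences were -0.25 for ACAT2 and -0.50 for PMVK, with counting intervals of -0.35 to -0.17 and -0.70 to -0.34. Exons of ACAT2 overlap those of TCP1 and SOD2 on the opposite strand. Whether counting used strand is not given, so the ACAT2 reads are uncertain to that extent. MVK, mevalonate kinase, was 5.16 and 4.28 FPKM in BHT-101, 5.36 and 5.52 in FTC-133, and 0.553 and 0.509 in 8505C, where it was not counted as measured. Its FTC-133 counting interval of -0.09 to 0.18 spanned 0.

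In the steps from farnesyl diphosphate to lanosterol, SQLE was set apart by its level in BHT-101. SQLE, the squalene epoxidase that inserts the oxygen of the sterol hydroxyl group, was 164 FPKM with siControl and 111 with siCRABP2 in BHT-101, 14.4 and 27.2 in FTC-133, and 11.4 and 10.3 in 8505C. Both BHT-101 libraries lay above the 4 others. Its differences were -0.55, 0.87 and -0.14, and no counting interval of the 3 spanned 0. FDFT1, squalene synthase, was 34.7 and 32.4 FPKM in BHT-101, 55.2 and 82.4 in FTC-133, and 15.4 and 15.6 in 8505C. LSS, which closes squalene epoxide to lanosterol, was 19.7 and 15.5 FPKM in BHT-101, 26.6 and 18.8 in FTC-133, and 5.06 and 5.69 in 8505C. LSS was thus lower with siCRABP2 in both knockdown lines (-0.33 and -0.48), while FDFT1 and SQLE, the steps before it, were higher in FTC-133.

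Among the enzymes that turn lanosterol into cholesterol, MSMO1 and DHCR7 stood farthest apart between the knockdown lines. Both were lower with siCRABP2 in BHT-101 and higher with it in FTC-133. MSMO1, a methylsterol monooxygenase, was 32.3 and 23.8 FPKM in BHT-101, 29.04 and 61.1 in FTC-133, and 8.96 and 11.5 in 8505C. DHCR7, the reductase that forms cholesterol, was 43.1 and 27.4 FPKM in BHT-101, 20.9 and 29.3 in FTC-133, and 5.15 and 5.53 in 8505C. The highest of the 6 libraries was FTC-133 with siCRABP2 for MSMO1 and BHT-101 with siControl for DHCR7. The MSMO1 differences were -0.43, 1.05 and 0.33, with counting intervals of -0.54 to -0.35, 0.999 to 1.15 and 0.20 to 0.52. The DHCR7 differences were -0.64, 0.47 and 0.09, and the last counting interval, -0.08 to 0.28, spanned 0.

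The other late enzymes differed less between the FTC-133 libraries. NSDHL, a sterol dehydrogenase, was 34.0 and 30.4 FPKM in BHT-101, 14.8 and 14.5 in FTC-133, and 14.8 and 15.9 in 8505C. EBP, a sterol isomerase, was 13.3 and 11.3 FPKM in BHT-101, 16.6 and 12.9 in FTC-133, and 3.76 and 3.69 in 8505C. SC5D, a sterol desaturase, was 2.70 and 3.27 FPKM in BHT-101, 8.23 and 6.94 in FTC-133, and 4.88 and 5.85 in 8505C. SC5D was the only sterol gene above 0 in BHT-101, with a difference of 0.21, and was among the 7 below 0 in FTC-133, at -0.22. CYP51A1, the lanosterol demethylase, was 2.84 and 2.50 FPKM in BHT-101 and 2.90 and 3.96 in FTC-133, and under 1 FPKM in 8505C. HSD17B7, a sterol ketoreductase with near-identical pseudogene copies, lay between 1.09 and 3.80 FPKM, with differences of -0.25, -0.04 and -0.04. TM7SF2, a sterol reductase, was 2.98 and 2.82 FPKM in BHT-101 and 3.03 and 2.38 in 8505C, but 0.473 and 0.399 in FTC-133. CYP51A1 and TM7SF2 share exons with other protein-coding genes on the same strand, so their reads are uncertain.

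The fatty acid branch begins with the supply of cytosolic acetyl-CoA. ACLY, which makes it from citrate, was 65.8 FPKM with siControl and 59.3 with siCRABP2 in BHT-101, 114 and 93.1 in FTC-133, and 35.9 with the empty and 31.8 with the CRABP2 vector in 8505C. It was lower with siCRABP2 in both knockdown lines and lower with the CRABP2 vector, with differences of -0.15, -0.29 and -0.17. ACSS2, which makes acetyl-CoA from acetate, was 5.998 and 5.12 FPKM in BHT-101, 6.79 and 8.91 in FTC-133, and 19.8 and 22.1 in 8505C. It was the only member whose 2 8505C libraries lay above the 4 others. The share of all genes with that order was not counted.

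FASN, the fatty acid synthase, was 37.0 and 26.9 FPKM in BHT-101, 48.0 and 60.8 in FTC-133, and 12.9 and 10.3 in 8505C. SCD, which makes monounsaturated fatty acids, was 202 and 155 FPKM in BHT-101, 112 and 117 in FTC-133, and 82.3 and 74.8 in 8505C. SCD had the highest level of the 30 genes in 4 of the 6 libraries, while ACLY was highest in FTC-133 with siControl and INSIG1 in FTC-133 with siCRABP2. The FASN differences were -0.44, 0.33 and -0.30, and those of SCD were -0.38, 0.06 and -0.14. The 0.06 of SCD in FTC-133 became -0.04 after quantile normalization, so its sign there depends on the scaling.

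ELOVL6, which lengthens saturated fatty acids, was 5.30 and 5.59 FPKM in BHT-101, 4.47 and 5.52 in FTC-133, and 1.27 and 2.55 in 8505C. It was the only member with a positive difference in all 3 lines (0.06, 0.25 and 0.64), although the BHT-101 counting interval, -0.05 to 0.20, spanned 0. Counting intervals above 0 in all 3 lines were found for 0 of 26 members and 533 of 9699 genes measured in every line. In 8505C the FPKM ratio of ELOVL6 was 2.01, with a counting interval of 0.76 to 1.25, above the 0.64 that the added 1 shrinks. FADS1 and FADS2, desaturases of polyunsaturated fatty acids that lie next to each other on chromosome 11, had their largest differences in different lines. FADS1 was 14.5 and 11.6 FPKM in BHT-101, 21.3 and 21.0 in FTC-133, and 16.2 and 10.0 in 8505C. FADS2 was 8.48 and 5.22 FPKM in BHT-101, 9.25 and 8.49 in FTC-133, and 0.336 and 0.313 in 8505C. FADS1 thus had its largest difference, -0.64, in 8505C, where FADS2 was not measured, and FADS2 had its largest, -0.61, in BHT-101. Their exons overlap on opposite strands, and FADS2 shares exon sequence with FEN1 on its own strand. The sources used here do not say whether counting used strand, and reads of these genes cannot be told apart with certainty.

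The regulators and other targets of the circuit come last. SREBF1, the gene of the SREBP that acts mainly on fatty acid synthesis, was 33.3 FPKM with siControl and 27.2 with siCRABP2 in BHT-101, 30.5 and 13.4 in FTC-133, and 9.68 with the empty and 6.43 with the CRABP2 vector in 8505C. Its differences were -0.28, -1.13 and -0.52, and the FTC-133 value was the most negative of all members in any line. SREBF2, the gene of the SREBP that acts mainly on sterol synthesis, was 36.5 and 28.7 FPKM in BHT-101, 22.9 and 27.4 in FTC-133, and 9.89 and 7.05 in 8505C. Its differences were -0.34, 0.25 and -0.43, so SREBF1 and SREBF2 had opposite signs in FTC-133 and the same sign in the other lines. SREBF1 and ACLY were the 2 of 26 members measured in every line whose counting intervals lay below 0 in all 3, where 4.57% of 9699 genes did.

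INSIG1, which retains the SREBPs in the endoplasmic reticulum and is itself an SREBP target, was 56.3 and 40.9 FPKM in BHT-101, 79.8 and 145 in FTC-133, and 3.25 and 4.39 in 8505C. Its 3 lines did not overlap, and its differences of -0.45, 0.85 and 0.34 had the signs of MSMO1, HMGCS1, MVD and FDPS. STARD4, a cytosolic sterol carrier, was 5.29 and 4.49 FPKM in BHT-101, 11.0 and 15.0 in FTC-133, and 4.90 and 3.46 in 8505C. LPIN1, a phosphatidate phosphatase of glycerolipid synthesis, was 2.37 and 1.94 FPKM in BHT-101, 4.82 and 2.96 in FTC-133, and 3.82 and 3.59 in 8505C. STARD4 had the signs of SREBF2 in every line (-0.20, 0.41 and -0.40), as did SQLE, FASN and SCD among others. LPIN1 had those of SREBF1 (-0.20, -0.56 and -0.07), as did ACLY, FADS1 and EBP among others. The -0.07 of LPIN1 in 8505C has a counting interval of -0.22 to 0.04 that spanned 0. It came to 0.07 with the GC and length trend removed.

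**Figure D3:**
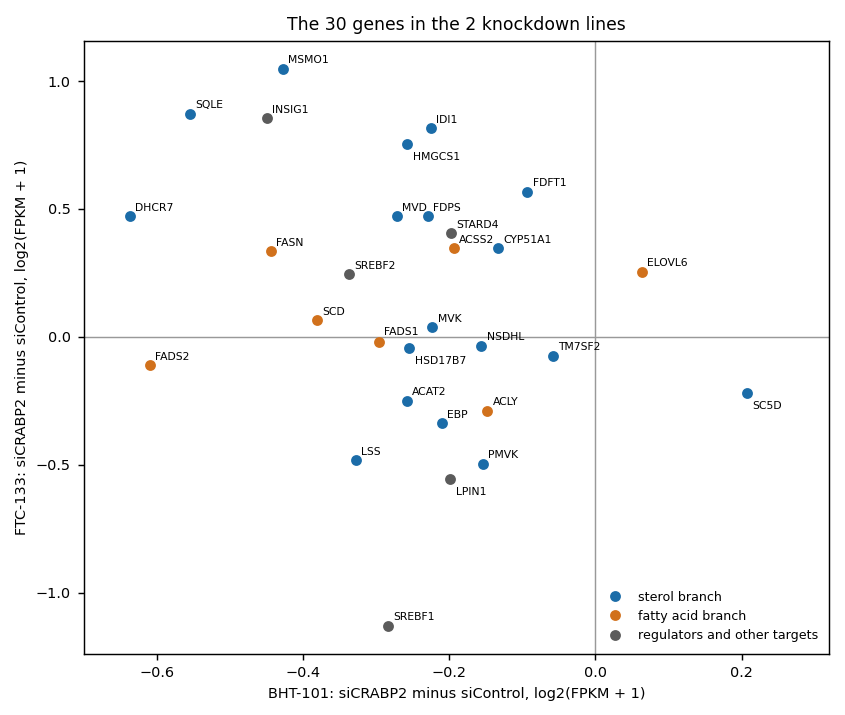
Difference of log2(FPKM + 1) between siCRABP2 and siControl in BHT-101 (x axis) and in FTC-133 (y axis), with 1 point per gene coloured by branch. The upper left field, of genes lower in BHT-101 but higher in FTC-133, holds 16 of the 30 genes, among them MSMO1, SQLE, INSIG1, IDI1 and HMGCS1, and SREBF1 lies lowest.

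The 2 knockdown lines were then set side by side. With siCRABP2, 16 of the 30 genes were lower in BHT-101 but higher in FTC-133 (SCD included, whose sign in FTC-133 depends on the scaling), where 19.2% of the 10658 genes measured in both lines were. For 14 of them both counting intervals lay off 0 on those opposite sides, against 5.69% of genes. The 16 were 10 of 18 sterol genes, 3 of 7 fatty acid genes and 3 of 5 regulators and other targets, and among the mevalonate steps they were 5 of 7. A further 12 genes, TM7SF2 at under 1 FPKM in FTC-133 included, were lower in both lines, where 27.7% of genes were. Of these, 4 turned above 0 in FTC-133 under an alternative: FADS1 (0.02) and NSDHL (0.01) when centred on all genes, HSD17B7 (0.03) after quantile normalization, and FADS1 (0.08) and FADS2 (0.03) with the GC and length trend removed. ELOVL6 was higher in both, and SC5D alone was higher in BHT-101 but lower in FTC-133. With 1 library per condition, the difference between the lines was not tested.

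Across lines, limma was fitted to all genes, with each line as its own block. Over the 4 siRNA libraries (12953 genes) none of the 30 genes passed at an adjusted p of 0.05, and no gene of the whole table did, with 1 residual degree of freedom. At an unadjusted p under 0.05 there were 539 genes (4.16%), 314 higher and 225 lower, and among the members LSS and SREBF1. LSS had a mean difference of -0.40 (SE 0.15, limma adjusted p = 0.869) and SREBF1 of -0.71 (SE 0.23, limma adjusted p = 0.869), lower in 2 of 2 lines each. The SREBF1 value rests on FTC-133: it is -0.28 in BHT-101 alone and -1.13 in FTC-133 alone.

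Over all 6 libraries, the lower CRABP2 arm (siCRABP2, empty vector) was compared with the higher arm (siControl, CRABP2 vector) in 11628 genes, with 2 residual degrees of freedom. No member and no gene passed, 372 genes (3.2%) had an unadjusted limma p under 0.05, and none of the 30 was among them. The median over the members was -0.05, beside -0.02 over all genes tested. In this arrangement the 8505C differences count with their sign turned, so that a gene such as SREBF1, lower with siCRABP2 and lower with the CRABP2 vector, has values of opposite sign. SREBF1 came to -0.30 (SE 0.28, limma adjusted p = 0.999), and to 0.12 without FTC-133.

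The levels of the 30 genes were then compared between lines. limma was fitted to all 6 libraries with the CRABP2 arm as a covariate (11628 genes, 2 residual degrees of freedom). The 2 libraries of a line serve as its replicates here although they differ in treatment, and 8505C received vectors while the other lines received siRNA, so the line and the kind of transfection cannot be told apart. Against BHT-101, 23 of 30 genes were lower in 8505C and 3 higher, where 30.7% of genes were lower and 30.5% higher. Against FTC-133, 23 of 30 were lower and 2 higher, where 33.7% of genes were lower and 24.2% higher. The median differences of the members were -1.17 and -1.46, beside 0.00 and -0.12 over all genes tested. By branch, 15 of 18 sterol genes, 5 of 7 fatty acid genes and 3 of 5 others were lower than in BHT-101, and 14, 5 and 4 were lower than in FTC-133. Without each library in turn, 18 of the 23 calls against BHT-101 and 20 of the 23 against FTC-133 were kept. Against BHT-101, the calls of FDFT1 and SCD were lost without BHT-101 siControl, those of MSMO1 and IDI1 without BHT-101 siControl or without the 8505C empty vector library, and that of ACLY without either BHT-101 library. Against FTC-133, that of FADS1 was lost without FTC-133 siControl or without the 8505C CRABP2 vector library, and those of PMVK and SREBF1 are given below.

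**Figure D4:**
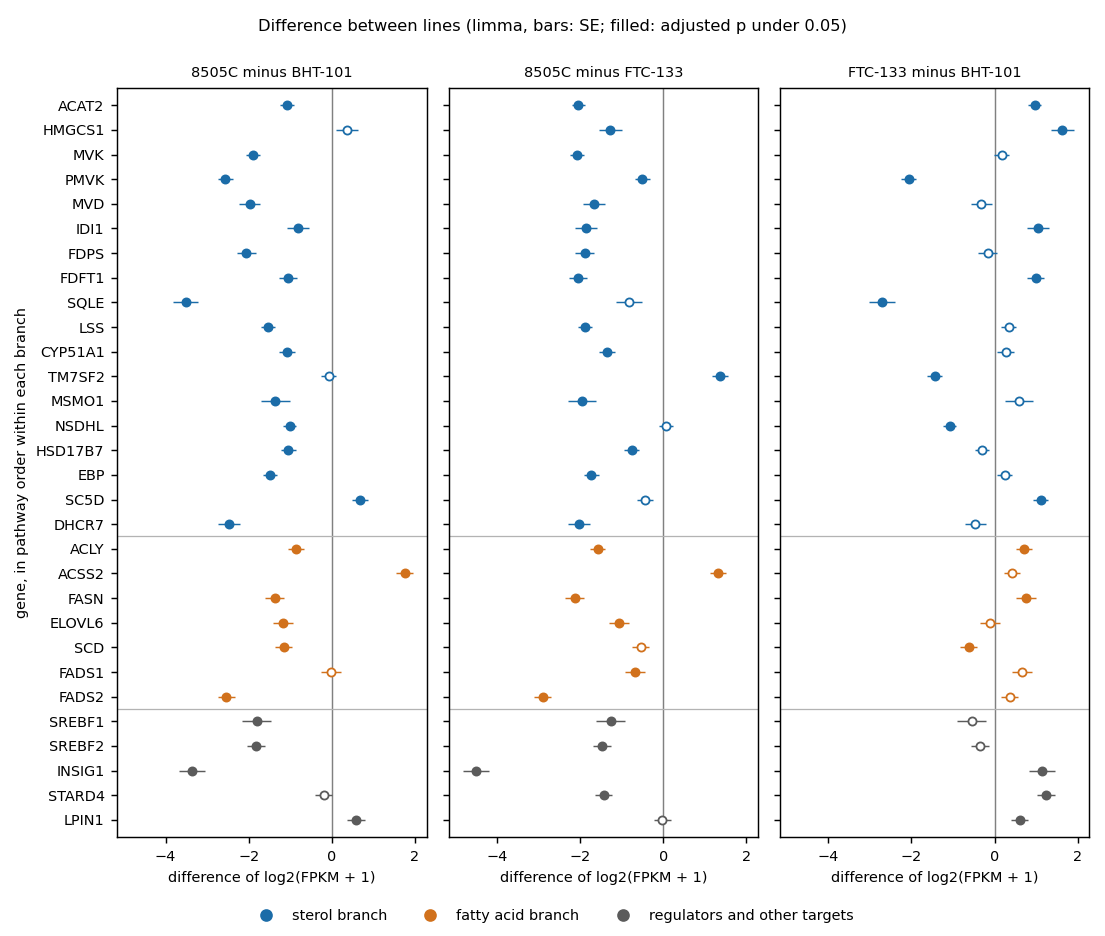
Difference of mean log2(FPKM + 1) between lines for each gene (8505C minus BHT-101, 8505C minus FTC-133, FTC-133 minus BHT-101), from limma on 6 libraries. Bars are standard errors, and filled points have an adjusted p under 0.05. In both 8505C panels 23 of the 30 points are filled on the left of 0, and SQLE and INSIG1 lie farthest left in the first.

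INSIG1 had a gap of -3.36 against BHT-101 (SE 0.32, limma adjusted p = 0.000172) and the largest gap of the 30 genes against FTC-133, -4.50 (SE 0.32, limma adjusted p = 6.06e-05). FADS2 stood at -2.54 and -2.90 (SE 0.21 for both, limma adjusted p = 0.000108 and 6.32e-05). SQLE had the largest gap against BHT-101, -3.52 (SE 0.31, limma adjusted p = 0.000138), whereas the -0.82 against FTC-133 did not pass (SE 0.31, limma adjusted p = 0.0573). PMVK was like SQLE in that its gap was wide against BHT-101 (-2.56, SE 0.18) and narrow against FTC-133 (-0.50, SE 0.18, limma adjusted p = 0.0428), the latter call being lost when any library but FTC-133 siCRABP2 was left out. DHCR7, FDPS, MVD and MVK were each lower by 1.66 to 2.48 in both comparisons. Both SREBP genes were lower too, with differences of -1.80 and -1.26 for SREBF1 and -1.83 and -1.48 for SREBF2, the SREBF1 call against FTC-133 being lost without the 8505C CRABP2 vector library (limma adjusted p = 0.0973).

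Some members went against that order. ACSS2 was higher in 8505C than in BHT-101 by 1.75 (SE 0.20, limma adjusted p = 0.000350) and than in FTC-133 by 1.32 (SE 0.20, limma adjusted p = 0.00123), and both calls held without each library. TM7SF2 was higher than in FTC-133 by 1.36 (limma adjusted p = 0.00085) and did not pass against BHT-101. SC5D and LPIN1 were higher than in BHT-101 by 0.67 and 0.58, but each of these calls was lost without either BHT-101 library. The SC5D call was also lost without the 8505C CRABP2 vector library, and the LPIN1 call without the 8505C empty vector library. Both were lost with no filter on low values. NSDHL against FTC-133 (0.06, SE 0.16) and FADS1 against BHT-101 (-0.02, SE 0.24) did not pass, nor did HMGCS1, STARD4 and TM7SF2 against BHT-101 or SCD, SC5D and LPIN1 against FTC-133.

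Between FTC-133 and BHT-101, 15 of the 30 genes did not pass, and the shares of members called were near those of all genes. In FTC-133 10 members were higher than in BHT-101 and 5 lower, where 26.7% and 15.2% of genes were, and the median of the members was 0.30 beside 0.17 over all genes tested. Lower in FTC-133 were SQLE (-2.70, SE 0.31), PMVK (-2.06, SE 0.18), TM7SF2 (-1.44, SE 0.19), NSDHL (-1.08, SE 0.16) and SCD (-0.62, SE 0.20), and all but SCD held without each library. Higher in FTC-133 were HMGCS1 (1.63, SE 0.27), STARD4, INSIG1, SC5D, IDI1, FDFT1, ACAT2, FASN, ACLY and LPIN1. Only HMGCS1 held without each library, and 2 of the 10 passed without the BHT-101 siCRABP2 library and 6 without the BHT-101 siControl library. Ranked by mean level, 8505C was lowest in 24 of 30 genes, FTC-133 highest in 17 and BHT-101 highest in 12. Such ranks were not counted over all genes, but 7024 of the 11628 tested lay above 0 in FTC-133 minus BHT-101, beside 18 of the 30. Both 8505C libraries lay below the 4 others in 22 of 30 genes, where 32.1% of genes did. Quantile normalization, or scaling every library to the same sum of FPKM, moved the median of all genes by -0.13 to 0.28 in these comparisons.

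Genes around the pathway were taken from lists of 46 other genes. Of 16 genes of SREBP processing and sterol handling, 7 of 16 were lower with siCRABP2 in BHT-101 (median 0.02), 10 of 15 in FTC-133 (median -0.14), and 11 of 16 were lower with the CRABP2 vector in 8505C (median -0.20). Over all measured genes 46.7%, 53.9% and 47.2% were lower in these comparisons. In BHT-101 the SREBP escort SCAP went from 10.3 to 9.26 FPKM (-0.14), and INSIG2, the second INSIG gene, from 6.72 to 8.49 (0.30). In FTC-133 the lysosomal cholesterol exporter NPC1 went from 10.6 to 18.6 FPKM (0.76) and the sterol-responsive TMEM97 from 12.0 to 5.39 (-1.03). In 8505C the SREBP protease MBTPS1 went from 38.4 to 20.7 FPKM (-0.86) and the cholesterol exporter ABCA1 from 2.13 to 0.828 (-0.78).

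Of 8 other sterol and isoprenoid enzymes, 7 were measured in each line, and 5, 5 and 4 of them were below 0 (medians -0.09, -0.23 and -0.04), beside the same 46.7%, 53.9% and 47.2% of all genes. PDSS1, which makes the tail of ubiquinone, went from 8.91 to 4.52 FPKM in FTC-133 (-0.84), with 2.43 and 4.31 in 8505C (0.63). Of 22 other fatty acid and lipid synthesis genes, 11 of 16 measured were below 0 in BHT-101, 10 of 17 in FTC-133 and 11 of 17 in 8505C, with medians of -0.04, -0.06 and -0.16, and the FTC-133 count is near the 53.9% of all genes. SLC25A1, the citrate carrier that feeds ACLY, went from 52.5 to 41.4 FPKM in BHT-101 (-0.34), and GPAM, which starts glycerolipid synthesis, from 6.15 to 2.73 in FTC-133 (-0.94). In 8505C ACACA, which makes malonyl-CoA for FASN, went from 5.77 to 3.47 FPKM (-0.60) and ACSL3, an acyl-CoA synthetase, from 31.6 to 19.4 (-0.67). The largest rises of that list were 0.12 for HACD3 in BHT-101, 0.69 for ELOVL7 in FTC-133 and 0.45 for SCD5 in 8505C.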

How the data were processed

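The authors deposited FPKM values (reads per gene scaled for its exon length and for depth) in 1 table of 58884 gene identifiers and 6 libraries with no unused column of samples. RNA was extracted with Trizol, per the labels' protocols. FastQC, Trimmomatic 0.38, featureCounts 2.0.0 and GRCh38 are named without a role, per the submitters' processing notes. The sources used here do not give the aligner, the annotation release or the strand setting. Of the 30 genes, 16 share exon positions with another gene, 15 of them on the opposite strand.

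Names, positions and exon lengths came from GENCODE release 29. FPKM times exon length gave whole reads (tolerance 0.001) for 74.9% of the 33848 genes above 0 at that length and for 96.9% at that or a searched length. Within a line, log2(FPKM + 1) was compared over genes with FPKM of at least 1 in 1 or both libraries. limma 3.58.1 (R 4.3.3) was used with a variance trend and Benjamini-Hochberg adjustment at 0.05, and was tested on simulated data. The pairing of libraries is the cell line in the labels. All 30 genes were named. The genes and lists were chosen with earlier results of these data known. Nothing says that cultures of a line were grown separately, so p-values measure the spread between these libraries. Alternatives were the pseudocount, low-value filters, centring, quantile normalization, removal of the GC and length trend, the size rule, the variance trend, the block and leaving out lines. Leaving out each library and rescaling, for contrasts of lines, were added after seeing the data.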

Additional observations from a re-analysis of the deposited data

Results flagged for a closer look

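For 15 of the 30 genes the difference between siCRABP2 and siControl pointed opposite ways in the 2 knockdown lines, with both counting intervals off 0. With 1 library per condition, none of these differences between lines was tested. The values below are the FTC-133 difference minus the BHT-101 difference on the log2(FPKM + 1) scale. In the sterol branch they were 1.48 for MSMO1, 1.43 for SQLE, 1.11 for DHCR7, 1.04 for IDI1, 1.01 for HMGCS1, 0.74 for MVD, 0.70 for FDPS and 0.66 for FDFT1. SC5D alone ran the other way, at -0.43. In the fatty acid branch they were 0.78 for FASN, 0.54 for ACSS2 and 0.44 for SCD, whose sign in FTC-133 depends on the scaling. Among the regulators and other targets they were 1.30 for INSIG1, 0.60 for STARD4 and 0.58 for SREBF2. The knockdown itself left CRABP2 at 11.4 FPKM in BHT-101 and 0.170 FPKM in FTC-133, and the part of this gap in the values above was not tested.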

How the results depend on the processing

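Of the counts and medians recomputed under an alternative, 175 kept their value (a count within 1.5 times the reported one), 19 moved and 1 reversed. The reversal was the FTC-133 median of the fatty acid branch, -0.020 after quantile normalization, and centring on all genes gave 0.10. The count of that branch above 0 in FTC-133, 4 of 7, ran from 3 to 6 and was still labelled as kept. SREBF1 over 6 libraries ran from -0.71 to 0.12 with a line left out, reversing without FTC-133, the line with its largest difference. The FTC-133 sterol median was 0.19 with no filter on low values. Of the sterol genes in BHT-101, 0 were above 0 at FPKM of at least 5 and 2 with the GC and length trend removed. At FPKM of at least 5, 1 fatty acid gene was above 0 in 8505C and 1 member was higher in 8505C than in FTC-133. With a size rule of 0.5, 3 members were lower in BHT-101, 6 higher and 2 lower in FTC-133, and 2 higher and 2 lower in 8505C. Over 6 libraries 0 to 10 genes passed when a line was left out, 1 without BHT-101 and 10 without FTC-133, none of them a member. With no filter, 4 members were higher in FTC-133 than in BHT-101 and 1 in 8505C than in BHT-101, and without 1 library these counts ran from 2 to 11 and from 1 to 3. With no replicate block (the cell line left out), 0 genes passed in either limma fit by arm. Of the calls of single members between lines, 713 recomputed values still passed, 71 did not and none changed sign. Depth limits MVK, CYP51A1, FADS2 and TM7SF2, with 37 to 82 reads in the line where they were not measured.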
